A study of Mus musculus with 24 samples.

Results

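Hc and Cd59a stand at opposite sides of the last step of the complement cascade, and both were expressed at different levels in the lungs of 3 inbred mouse strains. They are 2 genes among the 8750 features of a study of radiation responses in lung and skin, and each was measured by 1 probe. Both were chosen by their mean levels in the 3 strains, so the differences between strains are given below as a description with no test. The choice compared strains, from levels in both tissues and over time and with earlier results of these data known, so the tests of irradiation and tissue given below for these genes are not independent support.

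RNA was taken from female mice aged 12 to 13 weeks, which were A/J, C57BL/6J or C3H/HeMs. For lung, mice received 10 Gy of gamma rays to the thorax and were killed 1 h, 12 h or 72 h later. For skin, taken with all its layers, the hind leg received 30 Gy, and unirradiated mice of each strain were the controls of both tissues. Each of the 24 two-colour cDNA arrays set the pooled RNA of 3 mice against a common mix of RNA from 10 organs, so there was 1 array per strain, tissue and time. The 4 arrays of a strain are therefore pools at different times, and p-values measure the spread between such pools and not between single mice.

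Complement is a set of plasma and membrane proteins that tags microbes and damaged cells, recruits leukocytes and perforates membranes. Hc encodes complement component C5, which is split into C5a, a peptide that attracts and activates leukocytes, and C5b, which starts the membrane attack complex together with C6, C7, C8 and C9. Cd59a encodes a lipid-anchored surface protein that keeps C9 from completing that pore on the cell's own membrane. A/J mice are known to carry an Hc allele with a frameshift and to lack C5 in serum. The arrays measured transcript and not protein.

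All values are log2 ratios of the tissue over the reference mix, centred on the median of the array, so 0 is the median ratio of an array and 1 unit is a doubling. The dye of lung RNA was Cy3 and that of skin RNA Cy5, and the ratios of lung were turned to read sample over reference. The tissues carried their own markers, with all 5 of 5 measured lung epithelium genes above the reference in lung and all 7 of 7 measured epidermis genes above it in skin. As deposited, skin and lung arrays correlated at r between -0.52 and -0.12, and after lung was turned at 0.12 to 0.51. Among the lung arrays, those of A/J and C3H/HeMs at 12 h and 72 h stood apart from the other 8. They correlated with the other 8 at 0.80 to 0.89 and held between 115 and 674 probes at exactly 0, against 1 to 23 on the others. Values of the other lung arrays are therefore given separately below.

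In lung, Hc was low in A/J, highest in C57BL/6J and high in C3H/HeMs. A/J lungs had -0.08, 0.15, 0.34 and -0.05 in the control and at 1 h, 12 h and 72 h. C57BL/6J lungs had 1.67, 2.26, 1.56 and 1.69 at the same times. C3H/HeMs lungs had 1.06, 1.20, 1.22 and 1.42. The 4 arrays of each strain formed a band of their own, with no overlap between any 2 strains, and irradiated and control arrays of a strain lay in the same band. In bulk tissue such as this, fewer cells of a type and less RNA per cell cannot be told apart.

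Hc averaged 0.09 ± 0.19 for A/J lungs, 1.79 ± 0.31 for C57BL/6J lungs and 1.23 ± 0.15 for C3H/HeMs lungs (SD, n = 4 arrays each). A/J minus C57BL/6J was -1.70 ± 0.37 (SD over 4 times), which is 3.26-fold lower in A/J, and it lay between -2.11 and -1.22 at each time. Of all 8750 features, 20 lay as far or farther in that direction. A/J minus C3H/HeMs was -1.14 ± 0.24, which is 2.2-fold lower in A/J, and 38 features lay as far. C57BL/6J minus C3H/HeMs was smaller, at 0.57 ± 0.36, and 812 features lay as far, so the order of those strains rests on a difference common among features.

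In lung, Cd59a was lowest in C57BL/6J, low in A/J and highest in C3H/HeMs. A/J lungs had -1.31, -0.96, -1.02 and -0.89 in the control and at 1 h, 12 h and 72 h. C57BL/6J lungs had -1.66, -1.52, -1.65 and -1.42, and C3H/HeMs lungs had -0.16, -0.15, -0.04 and 0.25. Again no array of a strain overlapped another strain, but the order differed from that of Hc: C57BL/6J, the strain with the most Hc transcript, had the least Cd59a transcript. The highest C57BL/6J array, at -1.42, lay only a little below the lowest A/J array, at -1.31, whereas C3H/HeMs was far from both.

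Cd59a averaged -1.04 ± 0.18 for A/J lungs, -1.56 ± 0.11 for C57BL/6J lungs and -0.03 ± 0.19 for C3H/HeMs lungs (SD, n = 4 arrays each). C57BL/6J minus C3H/HeMs was -1.54 ± 0.13 (SD over 4 times), a level 2.9-fold lower in C57BL/6J, and 17 of the 8750 features lay as far or farther in that direction. A/J minus C3H/HeMs was -1.02 ± 0.16, 2.02-fold lower in A/J, with 61 features as far. A/J minus C57BL/6J was 0.52 ± 0.12, with 457 features as far. Over all features, lung ranges of 4 and 4 arrays did not overlap for 15.1% between A/J and C57BL/6J, 4.8% between A/J and C3H/HeMs and 16.5% between C57BL/6J and C3H/HeMs. All 3 strains were separate for 25 features, or 0.286%, which include Hc and Cd59a. Since the strain levels chose both genes, nothing is read from these shares.

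The lung pattern was also present without the 4 arrays that stood apart. In controls and at 1 h, A/J lungs averaged 0.03 for Hc, C57BL/6J lungs 1.96 and C3H/HeMs lungs 1.13 (n = 2 arrays each). For Cd59a the same arrays averaged -1.13 for A/J, -1.59 for C57BL/6J and -0.16 for C3H/HeMs. At 12 h and 72 h, A/J lungs averaged 0.14 for Hc and -0.95 for Cd59a, C57BL/6J lungs 1.62 and -1.54, and C3H/HeMs lungs 1.32 and 0.10. The order of the strains was the same in both sets of times for both genes.

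**Figure D1:**
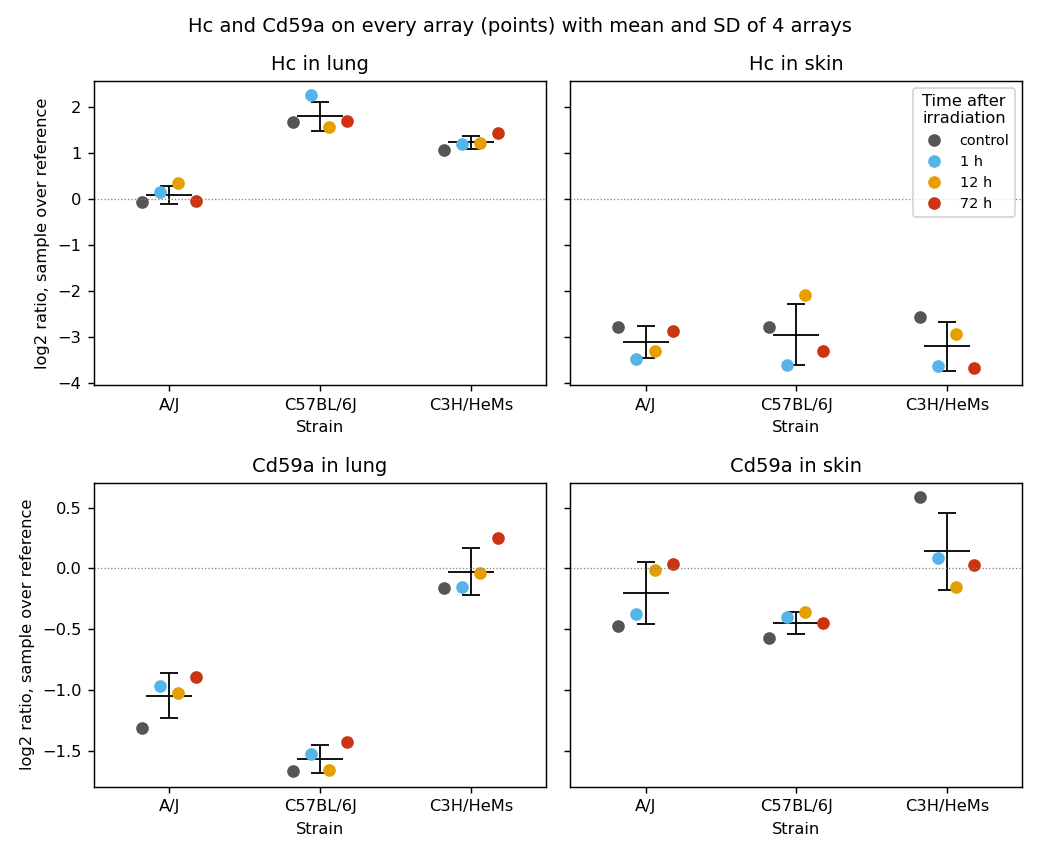
Log2 ratio of sample over reference (vertical axis) of Hc (top) and Cd59a (bottom) in lung (left) and skin (right), with 1 point per array by strain, coloured by time, and bars for the mean and SD of 4 arrays. In lung the strains form separate bands for both genes, while in skin Hc overlaps between strains at -3.69 to -2.10 and Cd59a of A/J overlaps both other strains.

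In skin, Hc was low in every strain and the strains overlapped. It lay at percentiles 1.5 to 4.6 of all features there, and whether background hid a strain difference was not tested. A/J skin had -2.78, -3.49, -3.31 and -2.88 in the control and at 1 h, 12 h and 72 h. C57BL/6J skin had -2.78, -3.62, -2.10 and -3.31, and C3H/HeMs skin had -2.58, -3.63, -2.94 and -3.69. The highest and the lowest of these arrays belong to C57BL/6J and C3H/HeMs, and all 4 A/J arrays lie between them. Mean differences between strains were -0.16 ± 0.72 for A/J minus C57BL/6J, 0.09 ± 0.52 for A/J minus C3H/HeMs and 0.26 ± 0.45 for C57BL/6J minus C3H/HeMs (SD over 4 times), each smaller than its own spread.

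Cd59a in skin kept the lung order of strain means at a smaller size. A/J skin had -0.47, -0.37, -0.01 and 0.04 in the control and at 1 h, 12 h and 72 h. C57BL/6J skin had -0.57, -0.40, -0.36 and -0.45, and C3H/HeMs skin had 0.59, 0.09, -0.15 and 0.03. C57BL/6J lay below C3H/HeMs on every array, with a mean difference of -0.59 ± 0.40 (SD over 4 times, 1.5-fold), and A/J overlapped both. A/J minus C57BL/6J was 0.24 ± 0.22, and A/J minus C3H/HeMs was -0.34 ± 0.54. Without the control arrays of both strains the difference of A/J from C3H/HeMs was -0.10. Without the 72 h arrays of both strains that from C57BL/6J was 0.16. The A/J minus C3H/HeMs difference thus rests mostly on the control time, when it was -1.06. A/J minus C57BL/6J lay between 0.03 and 0.49 at each time. Over all features, skin ranges did not overlap for 13.7% between A/J and C57BL/6J, 9.53% between A/J and C3H/HeMs and 5.94% between C57BL/6J and C3H/HeMs, and for 0.183% between all 3 strains.

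Cell markers were measured beside these levels. Liver is the main source of plasma C5 and macrophages also make it. Of 6 measured hepatocyte genes, 0 lay above the reference in either tissue, and A/J lungs had list means of -5.23 to -4.89, C57BL/6J lungs of -5.40 to -4.99 and C3H/HeMs lungs of -5.33 to -5.11. Of 8 measured macrophage and monocyte genes, 6 lay above the reference in the lungs of each strain. A/J lungs had means of 0.60 to 0.86 for this list, C57BL/6J lungs of 0.29 to 0.45 and C3H/HeMs lungs of 0.36 to 0.73. The strain means were 0.78, 0.39 and 0.58 in that order, and the ranges of A/J and C3H/HeMs overlapped. For the 6 measured neutrophil genes A/J lungs had means of -0.10 to 0.20, C57BL/6J lungs of -1.18 to -0.11 and C3H/HeMs lungs of -0.74 to -0.38. The 6 measured endothelium genes had means of 1.66 to 1.83 in A/J lungs, 1.36 to 1.64 in C57BL/6J lungs and 1.69 to 1.97 in C3H/HeMs lungs. Their strain means of 1.75, 1.54 and 1.82 had the order of Cd59a in lung, though the ranges of A/J and C3H/HeMs overlapped. In skin their means of -1.14, -1.01 and -1.18 did not have the order of Cd59a. Lung epithelium genes had means of 2.59 to 3.27, 2.77 to 2.89 and 1.79 to 2.86 in the lungs of those strains, with C3H/HeMs lowest on average. The part of these lists in the levels of Hc and Cd59a was not tested.

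The rest of the pathway was examined through a list of 54 complement genes, of which 24 were measured by a probe with a single gene symbol, Hc and Cd59a included. C8a, a chain of C8, was at the limit of the deposited scale on all 24 arrays and gives no comparison, which leaves 21 other genes. C6, C7, C3 and the C5a receptors are among the 30 with no such probe, as is Cd59b, the second mouse Cd59 gene. Strain differences were tested with limma's moderated test across all features, with Benjamini-Hochberg adjustment and a threshold of 0.05. In lung, 0 of these 21 genes passed in any of the 3 contrasts. The background was 3.67% of all features for A/J minus C57BL/6J, 0.411% for A/J minus C3H/HeMs and 1.82% for C57BL/6J minus C3H/HeMs. At an unadjusted p under 0.05 they held 2, 1 and 3 in those contrasts, or 9.52%, 4.76% and 14.3% of the list, against 24.6%, 11.1% and 21.7% of all features. At such rates a short list would hold few or no calls. The list's median difference was 0.01, -0.01 and 0.01, against 0.08, 0.05 and -0.01 over all features.

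The complement genes nearest to a call in lung were small differences. For A/J minus C57BL/6J they were C1qc, a chain of the C1q recognition molecule, at -0.35 (limma adjusted p = 0.103), Serping1, the C1 inhibitor, at -0.28 (0.191) and C1qbp, a C1q-binding protein, at 0.27 (0.21). For A/J minus C3H/HeMs they were Cr2, the receptor for C3d, at 0.46 (adjusted p = 0.405), C3ar1, the C3a receptor, at 0.36 (0.585) and Itgb2, the shared chain of complement receptors 3 and 4, at -0.18 (0.616). For C57BL/6J minus C3H/HeMs they were Itgb2 at -0.42 (adjusted p = 0.1), Serping1 at 0.37 (0.14) and C1qc at 0.34 (0.142). For comparison, the plot of strain differences sets these genes beside Hc and Cd59a. Both were chosen for their strain levels, so that their differences exceed most of the list is set by the choice. Even so C9, at -0.63 for A/J minus C57BL/6J, was farther from 0 than Cd59a at 0.52, with a limma adjusted p of 0.484.

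**Figure D2:**
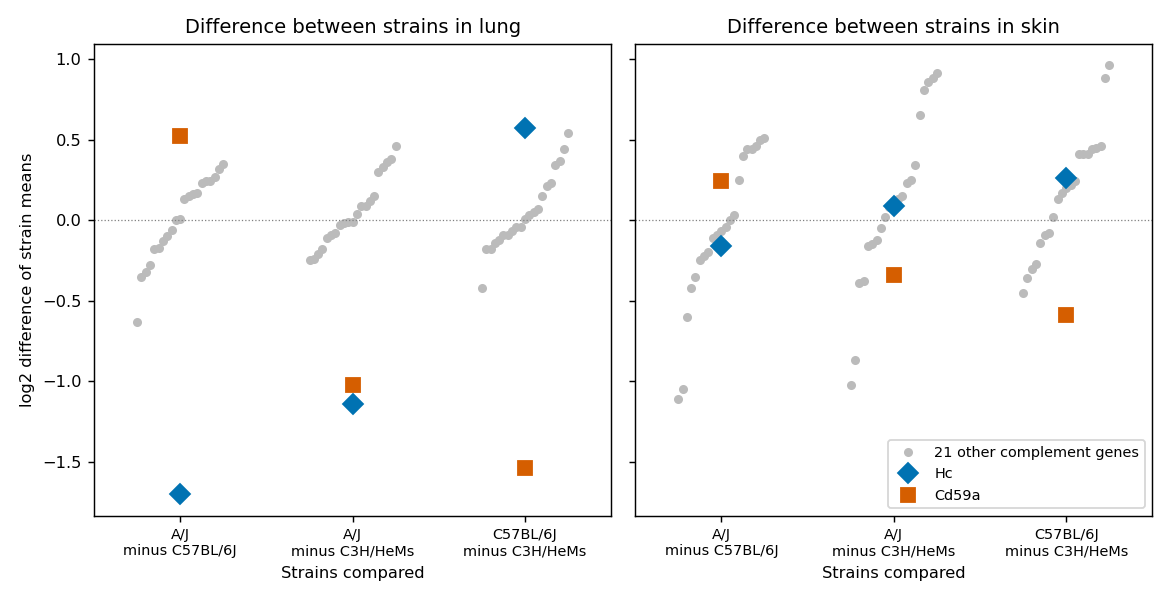
Log2 difference of strain means (vertical axis) in lung (left) and skin (right) for Hc (diamonds), Cd59a (squares) and the 21 other complement genes measured within the limits (grey points, sorted), by pair of strains. In lung Hc lies at -1.70 for A/J minus C57BL/6J and Cd59a at -1.54 for C57BL/6J minus C3H/HeMs, below all grey points, as the choice of these genes by strain level sets, while in skin both lie within the range of the grey points except Cd59a for C57BL/6J minus C3H/HeMs, at -0.59.

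In skin, too, 0 of the 21 other complement genes passed in any strain contrast, against a background of 0.297% for A/J minus C57BL/6J, 0.251% for A/J minus C3H/HeMs and 0.194% for C57BL/6J minus C3H/HeMs. At an unadjusted p under 0.05 they held 4, 7 and 3, or 19%, 33.3% and 14.3% of the list, against 14.4%, 18.9% and 13.8% of all features. For A/J minus C57BL/6J the smallest p belonged to Clu, or clusterin, a fluid-phase inhibitor of the membrane attack complex, at -1.05 (limma adjusted p = 0.162), Cfp, or properdin, which stabilises the alternative convertase, at -1.11 (0.168) and Vtn, or vitronectin, at 0.50 (0.315). For A/J minus C3H/HeMs it belonged to Masp2, a lectin pathway protease, at 0.88 (adjusted p = 0.101), Cr2 at 0.91 (0.102) and Cd55, a membrane protein that dismantles convertases, at -0.87 (0.111). For C57BL/6J minus C3H/HeMs it belonged to Cr2 at 0.88 (adjusted p = 0.181), Cfp at 0.96 (0.214) and C4bp, the C4b-binding protein, at 0.45 (0.273). Several of these differences were larger than those of Hc in skin, and none passed. Over the 8 measured skeletal muscle genes A/J skin had array means of -1.70 to -0.74, C57BL/6J skin of -0.56 to -0.10 and C3H/HeMs skin of -1.80 to 1.44, and the part of muscle in these values was not tested.

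Both genes lie on chromosome 2. The 10 nearest measured genes on each side of Hc and of Cd59a were compared between strains to see whether a stretch of the chromosome differed. For either gene, 0 of the 20 neighbours passed in any strain contrast in lung or skin by limma. Of all features, 3.67% passed in lung for A/J minus C57BL/6J, 0.411% for A/J minus C3H/HeMs and 1.82% for C57BL/6J minus C3H/HeMs. In skin 0.297%, 0.251% and 0.194% passed. At such rates 20 genes would hold few or no calls. In lung the neighbours of Hc held 4, 2 and 2 with an unadjusted p under 0.05 for A/J minus C57BL/6J, A/J minus C3H/HeMs and C57BL/6J minus C3H/HeMs, and those of Cd59a held 4, 5 and 6. In skin the counts were 3, 4 and 0 around Hc and 3, 3 and 3 around Cd59a. The shares of all features under that p, for the same contrasts in that order, were 24.6%, 11.1% and 21.7% in lung. In skin they were 14.4%, 18.9% and 13.8%. In lung the counts of 5 and 6 of 20 around Cd59a lay above their shares, while the other lung counts lay below theirs. No count was tested against its share. The measured genes beside Hc, named here for their position after values were seen, were Traf1, at -0.16, 0.63 and 0.79 in lung for those contrasts, and Rab14, at 0.21, 0.18 and -0.03. Beside Cd59a they were Lmo2, at -0.12, -0.69 and -0.57, and Hipk3, at 0.19, 0.32 and 0.13. By the signs of these estimates, none of the 4 genes had the strain pattern of its neighbour Hc or Cd59a in all 3 contrasts. Lmo2 was, like Cd59a, lower in A/J and in C57BL/6J than in C3H/HeMs (limma adjusted p = 0.124 and 0.106). Its A/J minus C57BL/6J difference was smaller than its SE of 0.16, so that sign is uncertain.

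Genes with array-to-array patterns like those of Hc and Cd59a were sought by Pearson's r over 24 arrays, after each tissue's mean was removed. These arrays share strains, times and, within a tissue, the dye, so r is a description. For Hc the highest were Abcg3 (r = 0.74), Raet1e (0.68), Tubb4a (0.64), Ambn (0.63) and Chil3 (0.63). Chil3, a chitinase-like protein of alveolar macrophages, averaged 1.92 for A/J lungs, 3.45 for C57BL/6J lungs and 1.92 for C3H/HeMs lungs, so it shared the high C57BL/6J level and not the gap between A/J and C3H/HeMs. For Cd59a the highest were Dclre1a (r = 0.87), Zfp979 (0.83), Sgcb (0.81), Stk10 (0.77) and Cnr2 (0.77). Dclre1a, a DNA crosslink repair nuclease, averaged 0.05 for A/J lungs, -0.14 for C57BL/6J lungs and 1.15 for C3H/HeMs lungs, the same order as Cd59a, and Zfp979 averaged -0.22, -0.41 and 0.79. None of these 10 genes lies on chromosome 2. Between Hc and Cd59a r was -0.08.

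Irradiation changed neither gene past the threshold in either tissue. In lung the limma estimates for Hc were 0.32 ± 0.19 at 1 h (SE, 95% interval -0.10 to 0.74), 0.16 ± 0.19 at 12 h (-0.27 to 0.58) and 0.13 ± 0.19 at 72 h (-0.29 to 0.56) relative to the control, each over 3 strains. Their limma adjusted p-values were 1, 0.704 and 0.745. The 1 h estimate of Hc was 0.12 without the C57BL/6J array at 1 h and 0.45 without that of C3H/HeMs. For Cd59a the estimates were 0.16 ± 0.12 at 1 h, 0.14 ± 0.12 at 12 h and 0.35 ± 0.12 at 72 h, with limma adjusted p-values of 1, 0.604 and 0.353. The 72 h value of Cd59a was above the control in 3 of 3 strains, with a 95% interval of 0.07 to 0.63, but did not pass over all features. In lung 0.0114% of features passed at 1 h and 0.114% at both 12 h and 72 h, and 0.0114% for all irradiated arrays against the controls, so few genes passed at any time.

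Without the 4 lung arrays that stood apart, Hc was 0.32 at 1 h, -0.25 at 12 h and -0.11 at 72 h relative to the control, and Cd59a was 0.16, 0.02 and 0.25, none past the threshold (limma adjusted p from 0.693 to 0.974). At 12 h and 72 h only the C57BL/6J arrays are then left, so the later values have no replicate. The sign of Hc at 12 h and 72 h thus depends on those arrays.

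In skin Hc was -0.86 ± 0.31 at 1 h (SE, 95% interval -1.55 to -0.17), -0.06 ± 0.31 at 12 h and -0.58 ± 0.31 at 72 h relative to the control by limma, with adjusted p-values of 0.999, 0.993 and 0.671. At 1 h all 3 strains lay below their control array, but with quantile normalization of the skin arrays the same difference was -0.30. Cd59a in skin was -0.08 ± 0.25 at 1 h, -0.03 ± 0.25 at 12 h and 0.02 ± 0.25 at 72 h, with limma adjusted p-values of 0.999, 0.998 and 0.986. In skin 0% of features passed at any time or for all irradiated arrays, although 381, 588 and 649 features had an unadjusted p under 0.05 at 1 h, 12 h and 72 h and 412 for all irradiated arrays.

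**Figure D3:**
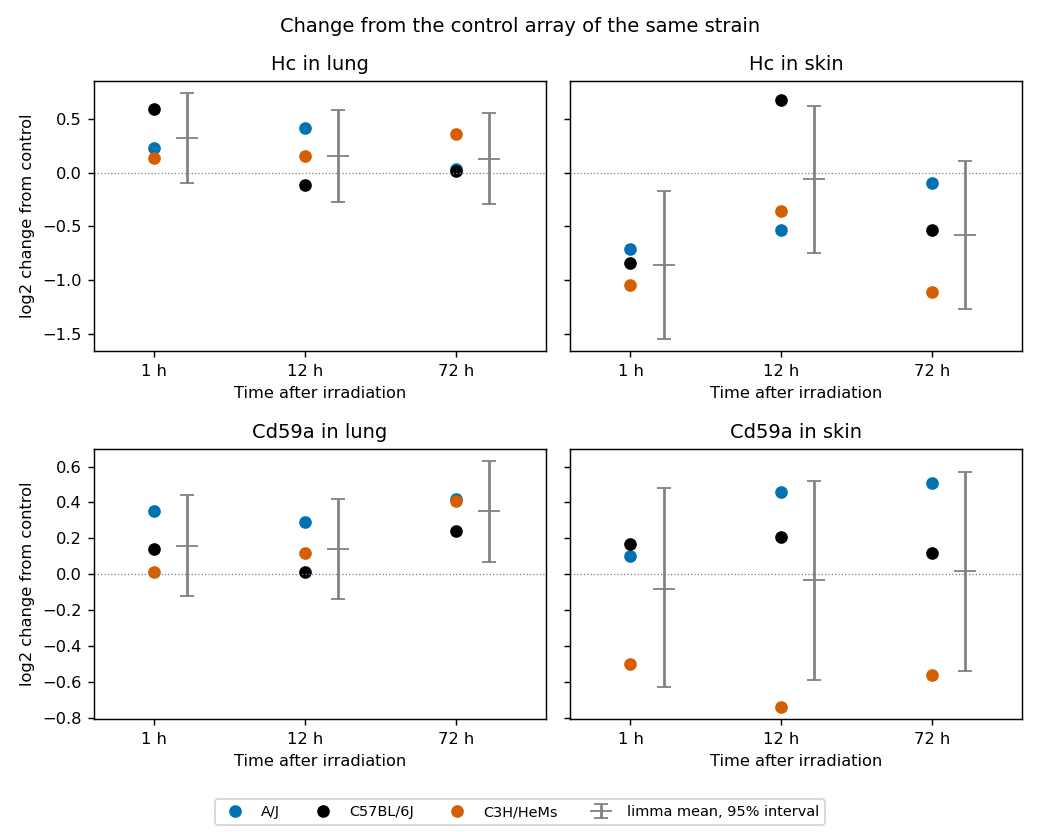
Log2 change from the control array of the same strain (vertical axis) at 1 h, 12 h and 72 h for Hc (top) and Cd59a (bottom) in lung (left) and skin (right), with 1 point per strain and grey bars for the limma mean and its 95% interval. The interval excludes 0 for Hc in skin at 1 h (-1.55 to -0.17) and Cd59a in lung at 72 h (0.07 to 0.63), neither of which passed after adjustment, and Cd59a in skin lies below control in C3H/HeMs and above it in A/J and C57BL/6J.

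Whether irradiation acted differently by strain was tested with an interaction of strain and irradiation, in which each strain has 3 irradiated arrays and 1 control. In lung A/J had an irradiated minus control difference of 0.22 for Hc, C57BL/6J of 0.17 and C3H/HeMs of 0.22 (limma F test, adjusted p = 0.998), and for Cd59a these differences were 0.35, 0.13 and 0.17 (0.992). In skin it was -0.44, -0.23 and -0.84 for Hc (adjusted p = 0.999) and 0.35, 0.16 and -0.60 for Cd59a (0.999). No interaction of either gene passed, against 0.0229% of features in lung and 0% in skin, where 293 features had an unadjusted p under 0.05.

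None of the 21 other complement genes passed at any time in lung or skin by limma. In lung the smallest p belonged to Serping1 (-0.20), C9 (-0.69) and Cr2 (-0.23) at 1 h, with limma adjusted p = 1. At 12 h it belonged to Masp1, a lectin pathway protease (-0.88, adjusted p = 0.408), Cd55 (0.64, 0.426) and C8g, another chain of C8 (0.33, 0.459). At 72 h it belonged to Cd55 (0.58, adjusted p = 0.434), C1qc (-0.24, 0.445) and Itgam, the other chain of complement receptor 3 (0.36, 0.469). In skin it belonged to Vtn (-0.69), Cr2 (-0.54) and C9 (-0.62) at 1 h, with limma adjusted p = 0.999. At 12 h it belonged to Itgam (1.42, adjusted p = 0.606), C9 (-0.89, 0.647) and Cfp (0.96, 0.656). At 72 h it belonged to Itgam (1.00, adjusted p = 0.662), C3ar1 (0.78, 0.667) and Clu (-0.64, 0.671). The largest of these estimates were those of the myeloid integrin chain Itgam in skin.

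The tissues differed for both genes, in opposite directions. Hc was lower in skin than in lung of the same strain and time in 12 of 12 pairs, by a mean log2 difference of -4.13 ± 0.25 (SE, 95% interval -4.66 to -3.60, limma adjusted p = 2.14e-09), or 17.5-fold. Cd59a was higher in skin in 10 of 12 pairs, by 0.71 ± 0.14 (95% interval 0.41 to 1.00, limma adjusted p = 0.000294), or 1.63-fold. Of all features, 75.6% passed this comparison, 44.6% higher and 31% lower in skin, so passing it was common. The split of the calls turned with the scaling, with 3899 higher and 2716 lower in skin after centring, 3124 higher and 3339 lower without centring, and 3132 and 3376 with quantile normalization. Lung RNA was always in Cy3 and skin RNA in Cy5, and tissue and dye cannot be told apart.

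Since Hc was about as low in the skin of each strain, its tissue difference by strain repeats the lung levels that chose it. A/J had a skin minus lung difference of -3.20 ± 0.51, C57BL/6J of -4.75 ± 0.93 and C3H/HeMs of -4.44 ± 0.66 (SD, n = 4 pairs each). A/J lung, the lowest of the lungs, therefore still read far above A/J skin for the same probe, and no array of either gene was at the limit of the deposited scale or at exactly 0. For Cd59a this difference was 0.84 ± 0.18 for A/J, 1.12 ± 0.13 for C57BL/6J and 0.17 ± 0.44 for C3H/HeMs, and both pairs below 0 were of C3H/HeMs. Beside this difference, the mean of the 5 lung epithelium genes was -3.67 to -2.97 on skin arrays and 1.79 to 3.27 on lung arrays, and that of 6 endothelium genes was -1.58 to -0.39 on skin arrays and 1.36 to 1.97 on lung arrays. Their part in the difference was not tested.

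Without the 4 lung arrays that stood apart, skin minus lung was -4.23 for Hc and 0.86 for Cd59a (limma adjusted p = 7.56e-07 and 9.71e-05). Without centring it was -4.34 and 0.50, and the median of all features moved to -0.03, against 0.18 with centring.

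Of the 21 other complement genes, 10 were higher in skin, 4 were lower and 7 did not pass, so 66.7% passed, below the background of 75.6%. Both measured C1q chains were higher in skin, C1qc by 1.89 ± 0.13 and C1qa by 0.92 ± 0.11, as were C2, the protease of the classical convertase, by 0.75 ± 0.15 and the pore protein C9 by 0.90 ± 0.21 (SE, 12 pairs). C3ar1 and C1qbp were higher by 0.98 ± 0.14 and 1.48 ± 0.09. Lower in skin were Cd93, a lectin-like receptor of endothelial and myeloid cells, by -2.60 ± 0.14, Cr2 by -0.91 ± 0.11, the lectin pathway recognition gene Mbl1 by -0.70 ± 0.19 and Itgb2 by -0.58 ± 0.13. Clu at 0.49, Cd55 at 0.49, C4bp at 0.41 and Itgam at 0.50 passed only with centred values and not without centring or with quantile normalization, where 6 genes were higher and 4 lower.

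The few terminal genes with usable values did not share a direction between tissues. Hc was lower in skin while C9 was higher, and C8g did not pass, at 0.21 ± 0.12 (limma adjusted p = 0.14). C9 lay far below the reference in both tissues, with means of -3.47 in lung and -2.57 in skin. Whether its difference reflects low signal was not tested. Of the measured membrane and fluid-phase regulators, Cd59a was higher in skin under each of the 3 scalings. Cd55, Clu and C4bp passed only with centred values, as given above. Cr1l (-0.01), Serping1 (0.13) and Vtn (0.07) did not pass.

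**Figure D4:**
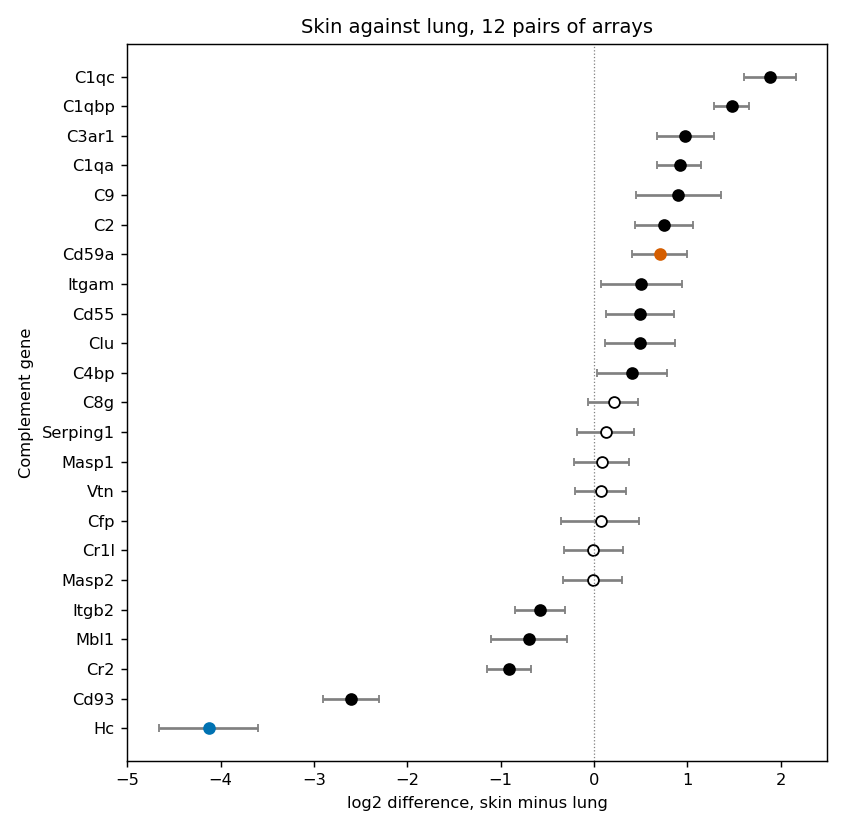
Log2 difference of skin minus lung (horizontal axis) for 23 complement genes, with the mean over 12 pairs of arrays and the 95% interval from limma, where filled points passed at an adjusted p under 0.05 and open points did not. Hc, in blue, has the largest difference, at -4.13, next to Cd93 at -2.60, while Cd59a, in orange, lies at 0.71.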

How the data were processed

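The authors deposited log10 ratios of Cy5 over Cy3 for 9275 probes on 24 arrays, made with Agilent Feature Extraction per the submitters' processing notes. Its version and its background, dye and filter steps are not given in the sources used here, and spot intensities were not used, so dim probes could not be marked. Deposited values stop at ±2.

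Lung ratios were turned in sign, multiplied by 3.32 to log2 and centred on each array's median. Probes of 1 symbol (6433, by GEO's platform annotation) were averaged per gene, and those with several symbols (381) or none (2461) were kept singly, giving 8750 features. RefSeq's gene table changed 0 symbols and gave chromosomes and gene order. Array columns outside the labels numbered 0.

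limma 3.58.1 in R 4.3.3 fitted strain and time to the 12 arrays of a tissue (6 residual degrees of freedom), the interaction of strain and irradiation, and 12 skin minus lung differences, with Benjamini-Hochberg adjustment over all features. The procedure was tested on simulated data. The number of arrays limits the precision. Alternatives were no centring, quantile normalization, values at the limits or 0 set to missing, other designs, leaving out 4 lung arrays and leaving out each array. For strain differences of Hc and Cd59a, the other strain's array of that time was then left out too.

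The genes, lists and tests were chosen with earlier results of these data known. Named are Hc, Cd59a, complement genes that passed a contrast or had the 3 smallest p-values in one, the 5 genes most like each by r, and neighbours that passed. Other genes named were chosen after their values were seen. Time in strain contrasts and strain in time contrasts served as blocks, since replicate numbers only name arrays.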

Additional observations from a re-analysis of the deposited data

Results flagged for a closer look

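One result was singled out. In skin, all 3 irradiated A/J arrays had more Cd59a than the A/J control, with a mean irradiated minus control difference of 0.35, and all 3 irradiated C57BL/6J arrays lay above theirs, by 0.16. In C3H/HeMs all 3 irradiated arrays lay below the control, by -0.60. The pairwise differences between strains were not tested, and the interaction over all strains did not pass (limma adjusted p = 0.999). The control of C3H/HeMs, at 0.59, is a single array of 1 pool and the highest Cd59a value in skin.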

How the results depend on the processing

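No difference of Hc or Cd59a that is described above as separate between strains changed sign under the alternatives run, and these differences were not tested. Neither tissue difference changed sign or side of the threshold. Of the complement genes, 0 passed a strain or time contrast except without single skin arrays. There 0 to 2 passed for A/J minus C3H/HeMs (2 without A/J at 12 h) and 0 to 1 for C57BL/6J minus C3H/HeMs (1 without C3H/HeMs at 12 h). Cd59a in lung for A/J minus C57BL/6J was 0.39 with quantile normalization. Strain differences of Hc were also taken without 1 time, which leaves out the arrays of both strains compared. In lung A/J minus C57BL/6J ran from -1.87 to -1.57, A/J minus C3H/HeMs from -1.22 to -1.03 and C57BL/6J minus C3H/HeMs from 0.40 to 0.66. In skin the A/J minus C57BL/6J difference of Hc ran from -0.36 to 0.18.

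The counts over all features depended more on the setting. In lung, A/J minus C57BL/6J gave 321, and 210 with limit values missing, 11 without the 4 arrays that stood apart, 17 with only the compared strains and 42 to 384 leaving out 1 array. A/J minus C3H/HeMs gave 36, and 60 with quantile normalization, 6 without the 4 arrays, 0 with only the compared strains and 5 to 32 leaving out 1. C57BL/6J minus C3H/HeMs gave 159, and 20 without the 4 arrays, 65 with only the compared strains and 44 to 127 leaving out 1. The lung time counts of 1, 10 and 10 were 0, 0 and 0 without the 4 arrays or with only the compared times, and 0 to 1, 6 to 10 and 2 to 8 leaving out 1. In skin, A/J minus C57BL/6J gave 26, and 16 without centring, 63 with only the compared strains and 5 to 40 leaving out 1. A/J minus C3H/HeMs gave 22, and 40 with quantile normalization, 0 with only the compared strains and 0 to 469 leaving out 1. C57BL/6J minus C3H/HeMs gave 17, and 10, 3 and 2 to 379 under the same settings. The highest of these counts, 469 and 379, came without the C3H/HeMs skin array at 12 h. Skin time counts were 0 to 1. With no replicate block, that is without time in the strain fits or strain in the time fits, the counts were 205 in lung for A/J minus C57BL/6J, 41, 45 and 31 in skin in the order above, and 6 in lung at 72 h. Fewer arrays in a fit leave fewer degrees of freedom, and other causes were not tested. Each gene had 1 probe, so no probe could be set against another, and the interaction was not fitted without the 4 arrays or with values missing.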
